A study of Homo sapiens with 8 samples.

Results

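The genes examined here encode the heat-inducible protein folding machinery of the cell: HSPH1, DNAJB1, DNAJA1, HSPA8, HSPA4, HSP90AA1, HSPB1, HSPD1, BAG3 and HSF1. Every array probe set (a group of short probes summarised as 1 value) that the platform annotation pairs with exactly 1 of these symbols was taken, which gave 24 probe sets for 9 of the 10 genes, of 54613 probe sets and 19775 genes in all. HSPA8 had none, since each of its probe sets is paired with further symbols. Not every gene fits the name of cytosolic heat shock chaperone, as HSPD1 works in the mitochondrion, BAG3 is a cochaperone and HSF1 is a transcription factor. The genes were chosen on values of these same arrays, and which values decided is not recorded, so every comparison counts as used. Their own values are therefore a description, given without a p-value, and counts of their calls support nothing.

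Total RNA was measured on 8 Affymetrix arrays of Hep-3B and Huh7, 2 established human hepatoma lines grown in 10% serum. Cells carried a lentiviral short hairpin RNA against KLHL23 (shKLHL23), a Kelch-like protein of the kind that serves as a substrate adaptor of cullin ubiquitin ligases, or a control hairpin against luciferase (shLuc). The groups, each of 2 arrays numbered 1 and 3, were Hep-3B shKLHL23, Hep-3B shLuc, Huh7 shKLHL23 and Huh7 shLuc. All were transduced at a multiplicity of infection of 2, for 48 hours before puromycin was added. The labels give a single name for the KLHL23 hairpin, so loss of KLHL23 and other effects of that hairpin cannot be told apart. Nor do they state that the arrays of a group came from separate cultures, so the spread behind each p-value is that between these arrays and may be technical.

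The values are log2 expression values after RMA (robust multi-array average), and every difference below is on that log2 scale, with the moderated standard error (SE) of a limma fit to all 8 arrays. A call is an adjusted p under 0.05 by limma with Benjamini-Hochberg adjustment over all probe sets. Values of different probe sets were not set against each other. KLHL23 itself, by its own probe set 241682_at, was at 7.21 and 6.15 in Hep-3B shKLHL23 cells, against 7.81 and 7.84 in Hep-3B shLuc cells, a difference of -1.14 ± 0.27 that was not called (limma adjusted p = 0.0764). It was at 5.78 and 5.88 in Huh7 shKLHL23 cells, against 7.89 and 7.87 in Huh7 shLuc cells, a difference of -2.05 ± 0.27 (limma adjusted p = 0.00392). Hepatoma markers such as ALB were bright in every group, and GPC3 was bright in Hep-3B cells but not in Huh7 cells. Of 13 markers of stromal, endothelial and blood cells, LUM, CDH5, KDR and PTPRC lay under the lower quartile of every array, COL3A1 on some arrays, and the other 8 on none, with group means of up to 6.84 for COL1A1, 7.13 for PECAM1 and 6.57 for CD14. The summed unlogged level of the 13 was 403.9 to 419.4 in Hep-3B shKLHL23 cells, against 422.1 to 432.3 in Hep-3B shLuc cells, and 429.7 to 445.5 in Huh7 shKLHL23 cells, against 424.6 to 426.1 in Huh7 shLuc cells. The part of such cells in the results was not tested. The 3′ minus 5′ difference of the ACTB control probe sets, a sign of RNA quality, moved with the groups: it was 0.737 and 0.753 in Hep-3B shKLHL23 cells, against 0.442 and 0.537 in Hep-3B shLuc cells, and 0.525 and 0.546 in Huh7 shKLHL23 cells, against 0.873 and 0.833 in Huh7 shLuc cells. The same difference for GAPDH was 0.22 and 0.24 in Hep-3B shKLHL23 cells, against 0.12 and 0.12 in Hep-3B shLuc cells. In Huh7 it overlapped, at 0.15 and 0.11 with shKLHL23, against 0.13 and 0.09 with shLuc. The part of RNA quality in the results was not tested.

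Chaperones hold unfolded proteins in solution and help them fold. HSP70 proteins do so in cycles that J-domain proteins start and nucleotide exchange factors end, and HSP90 receives part of their clients. When unfolded proteins take up the free chaperones, HSF1 is released, forms trimers and binds heat shock elements, which are repeats of GAA in alternating orientation, in the promoters of many chaperone genes.

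The promoters of the genes were searched for such elements, because this is the DNA through which HSF1 is known to act. RefSeq promoters of assembly GRCh38.p14, covering 250 bases before to 50 bases after each annotated start, were found for 9 of the 10 genes. HSF1 had none, so these 9, which include HSPA8, are not the 9 with probe sets of their own. The element searched, GAANNTTC followed directly by NNGAA (N for any base), on either strand, was present in 4 of these 9 genes (44.4%), in 5 of 68 other chaperone network genes (7.35%) and in 166 of 27305 gene symbols in all (0.608%). Counted by promoter, it was in 4 of 13 promoters of the genes (30.8%) and in 172 of 35116 promoters (0.49%). The windows that hold it are given below from the gene's own strand, 5′ to 3′, with the element in capitals.
HSP90AA1, minus strand, chr14:102087045-102087174: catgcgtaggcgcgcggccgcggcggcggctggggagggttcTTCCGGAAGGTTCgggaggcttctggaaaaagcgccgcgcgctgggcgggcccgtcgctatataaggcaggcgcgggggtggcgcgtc
DNAJA1, plus strand, chr9:33025213-33025292: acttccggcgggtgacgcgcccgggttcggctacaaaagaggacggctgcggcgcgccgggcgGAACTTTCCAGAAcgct
HSPA8, minus strand, chr11:123062137-123062386: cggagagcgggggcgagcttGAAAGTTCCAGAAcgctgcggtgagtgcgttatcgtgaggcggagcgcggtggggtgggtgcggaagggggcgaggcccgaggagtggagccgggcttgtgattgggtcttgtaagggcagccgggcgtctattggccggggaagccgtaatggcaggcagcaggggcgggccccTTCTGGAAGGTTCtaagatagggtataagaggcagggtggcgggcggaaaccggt
HSPD1, minus strand, chr2:197499971-197500090: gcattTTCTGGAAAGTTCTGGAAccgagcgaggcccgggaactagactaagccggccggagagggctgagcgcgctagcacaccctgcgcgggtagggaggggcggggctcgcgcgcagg
In HSP90AA1 the element began 88 bases before the start, and in DNAJA1 it began 3 bases after it. HSPA8, the constitutive HSP70 of the cytosol, had an element 230 and another 55 bases before its start. HSPD1 had overlapping elements that began 245 and 240 bases before the start. HSP90AA1 and HSPD1 each have 2 annotated starts, and only 1 of them had the element. The shorter GAANNTTC, which every longer match contains, was in 6 of 9 genes (66.7%), DNAJB1 and HSPB1 being the further 2, against 8.21% of all gene symbols. A match of letters shows neither binding nor an effect, and other spellings of the element were not searched.

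**Figure D1:**
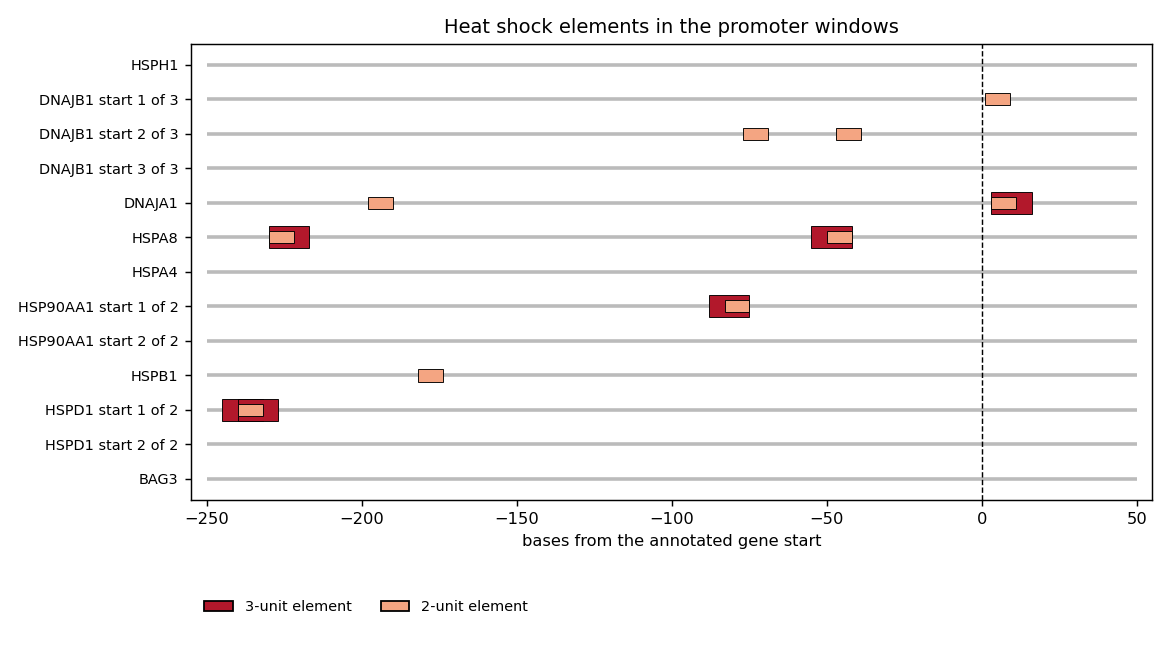
Positions of the searched elements in the promoters of the genes, with the distance from the annotated start in bases on the x axis and a row for each promoter. Dark bars are the full element of GAANNTTC and NNGAA (3-unit) and pale bars GAANNTTC alone (2-unit), on either strand. HSPA8 had the full element at 2 separate places, and that of DNAJA1 lay just after the start.

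HSPH1, DNAJB1, DNAJA1 and HSP90AA1 were higher in shKLHL23 cells of both lines by each of their probe sets, except that DNAJA1 200880_at overlapped in Huh7. HSPB1 and the bright HSPD1 probe sets differed little, and the HSPA4 probe sets disagreed. In 11 of the 24 probe sets both shKLHL23 arrays lay above both shLuc arrays in each line, against 9.62% of all probe sets. These 11 belonged to HSPH1, DNAJB1, DNAJA1, HSP90AA1 and, by a single probe set, HSPA4. The differences were of modest size, up to 0.67 in Hep-3B and up to 0.72 in Huh7 cells among the 24. RNA came from whole cultures, so a change in the share of cells expressing a gene and a change in its RNA per cell cannot be told apart.

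**Figure D2:**
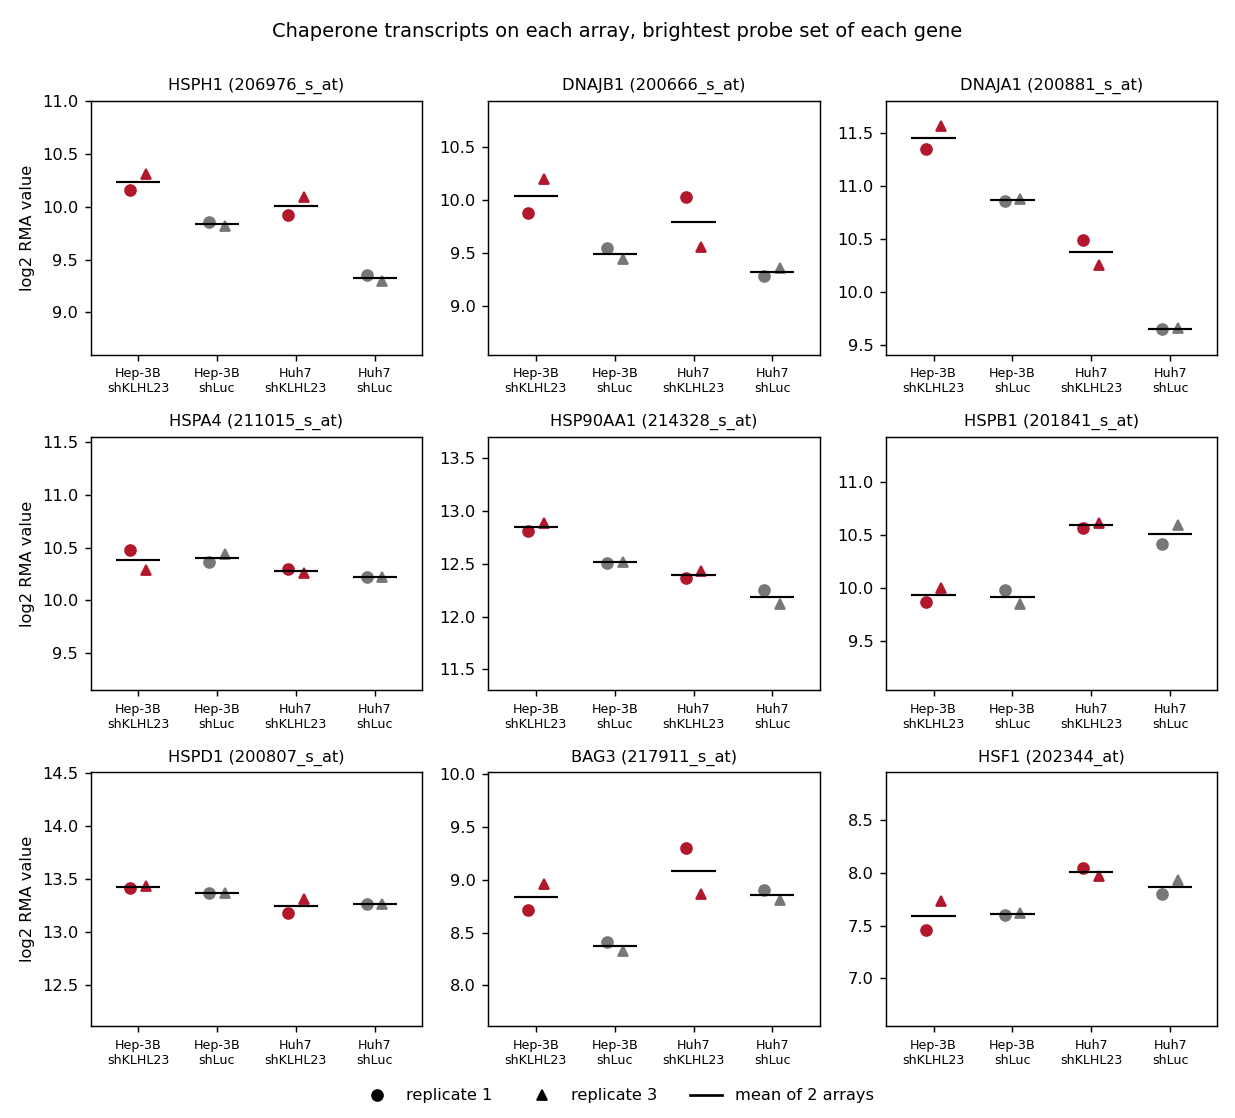
Log2 RMA values of each gene's brightest probe set on every array, with symbols for replicates 1 and 3 and a line at each group mean. HSPH1, DNAJA1 and HSP90AA1 are higher on the shKLHL23 arrays than on the shLuc arrays of the same line, and HSPB1 overlaps between them.

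HSPH1, an HSP110 protein that exchanges nucleotides on HSP70 and helps dissolve aggregates, was measured by 3 probe sets. The brightest, 206976_s_at, was at 10.16 and 10.31 in Hep-3B shKLHL23 cells, against 9.86 and 9.81 in Hep-3B shLuc cells. On the Huh7 arrays it was at 9.92 and 10.09 with shKLHL23, against 9.35 and 9.30 with shLuc. The groups did not overlap in either line. The differences were 0.40 ± 0.11 in Hep-3B and 0.69 ± 0.11 in Huh7, a 1.32-fold and a 1.61-fold higher level. The 208744_x_at probe set differed by 0.26 ± 0.11 in Hep-3B and 0.71 ± 0.11 in Huh7, and the dim 235573_at by 0.42 ± 0.18 and 0.51 ± 0.18. HSPA4, a related HSP110 protein, did not show 1 pattern. Its brightest probe set, 211015_s_at, was at 10.48 and 10.28 in Hep-3B shKLHL23 cells, against 10.36 and 10.44 in Hep-3B shLuc cells, and these overlapped. In Huh7 cells it was at 10.30 and 10.26 with shKLHL23, against 10.22 and 10.22 with shLuc, a difference of only 0.05 ± 0.10. In Hep-3B cells the dim 208814_at was higher by 0.51 ± 0.14 and 211016_x_at was lower, with a difference of -0.41 ± 0.11, so the probe sets of this gene disagreed. The remaining 208815_x_at differed by -0.01 ± 0.10 in Hep-3B and -0.12 ± 0.10 in Huh7.

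DNAJB1 and DNAJA1 are J-domain proteins that hand clients to HSP70, and DNAJB1 is a classic heat-induced gene. DNAJB1, by 200666_s_at, was at 9.88 and 10.19 in Hep-3B shKLHL23 cells, against 9.54 and 9.44 in Hep-3B shLuc cells. The Huh7 values were 10.03 and 9.56 with shKLHL23, against 9.28 and 9.35 with shLuc. All shKLHL23 arrays were above the shLuc arrays of their line, with the widest gap between replicates in Huh7 shKLHL23 cells. The differences were 0.55 ± 0.16 in Hep-3B and 0.47 ± 0.16 in Huh7, and those of 200664_s_at were 0.39 ± 0.15 and 0.69 ± 0.15. DNAJA1, whose promoter is printed above, was at 11.35 and 11.57 by 200881_s_at in Hep-3B shKLHL23 cells, against 10.86 and 10.88 in Hep-3B shLuc cells. In Huh7 cells it was at 10.49 and 10.26 with shKLHL23, against 9.64 and 9.66 with shLuc. These groups were clearly apart, by 0.59 ± 0.12 in Hep-3B and 0.72 ± 0.12 in Huh7. The second DNAJA1 probe set, 200880_at, differed by 0.67 ± 0.14 in Hep-3B but by 0.10 ± 0.14 in Huh7, where its arrays overlapped, at 9.45 and 9.09 with shKLHL23, against 9.17 and 9.18 with shLuc.

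HSP90AA1, the stress-inducible cytosolic HSP90, was higher with shKLHL23 by all 4 of its probe sets in both lines. The brightest, 214328_s_at, was at 12.81 and 12.89 in Hep-3B shKLHL23 cells, against 12.51 and 12.52 in Hep-3B shLuc cells. In Huh7 cells it was at 12.36 and 12.43 with shKLHL23, against 12.25 and 12.12 with shLuc. No groups of a line overlapped. Its differences were 0.33 ± 0.10 in Hep-3B and 0.21 ± 0.10 in Huh7. The other probe sets, 210211_s_at, 211969_at and 211968_s_at, differed by 0.36, 0.33 and 0.40 in Hep-3B and by 0.27, 0.48 and 0.42 in Huh7. HSP90AB1, the constitutive partner gene, differed by 0.10 ± 0.10 in Hep-3B (limma adjusted p = 0.723) and by 0.12 ± 0.10 in Huh7 (limma adjusted p = 0.565), so it was not called in either.

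HSPB1, a small heat shock protein that holds unfolded clients, was measured by a single probe set, 201841_s_at. It was at 9.87 and 10.0 in Hep-3B shKLHL23 cells, against 9.97 and 9.84 in Hep-3B shLuc cells, and at 10.57 and 10.61 in Huh7 shKLHL23 cells, against 10.41 and 10.6 in Huh7 shLuc cells. Its differences, 0.02 ± 0.11 in Hep-3B and 0.09 ± 0.11 in Huh7, were within their error. BAG3, an HSP70 cochaperone that directs clients to autophagy, was by 217911_s_at at 8.72 and 8.96 in Hep-3B shKLHL23 cells, against 8.41 and 8.33 in Hep-3B shLuc cells. Its Huh7 values were 9.3 and 8.86 with shKLHL23, against 8.9 and 8.81 with shLuc. The groups were apart in Hep-3B (0.47 ± 0.15) and overlapped in Huh7 (0.23 ± 0.15).

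HSPD1, the mitochondrial HSP60, differed little at its bright probe sets. The 200807_s_at probe set was at 13.41 and 13.44 in Hep-3B shKLHL23 cells, against 13.37 and 13.37 in Hep-3B shLuc cells, and at 13.18 and 13.31 in Huh7 shKLHL23 cells, against 13.27 and 13.26 in Huh7 shLuc cells. The differences were 0.05 ± 0.10 and -0.02 ± 0.10, and those of 200806_s_at were -0.05 ± 0.11 and -0.04 ± 0.11. A much dimmer probe set, 243372_at, went opposite ways, at 0.38 ± 0.12 in Hep-3B and -0.38 ± 0.12 in Huh7, and the dim 241716_at and 243845_at stayed between -0.08 and 0.10.

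HSF1 is the factor that drives heat shock genes, and its probe sets disagreed. The brighter 202344_at was at 7.45 and 7.73 in Hep-3B shKLHL23 cells, against 7.60 and 7.62 in Hep-3B shLuc cells, and at 8.04 and 7.97 in Huh7 shKLHL23 cells, against 7.80 and 7.93 in Huh7 shLuc cells. It overlapped in Hep-3B and differed by 0.14 ± 0.12 in Huh7. The dimmer 213756_s_at was at 5.17 and 5.22 in Hep-3B shKLHL23 cells, against 5.79 and 5.77 in Hep-3B shLuc cells, and at 6.39 and 6.20 in Huh7 shKLHL23 cells, against 5.77 and 5.99 in Huh7 shLuc cells. It was thus lower with shKLHL23 in Hep-3B (-0.59 ± 0.11) and higher in Huh7 (0.42 ± 0.11). HSF1 is controlled mainly at the protein level, which arrays do not measure.

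**Figure D3:**
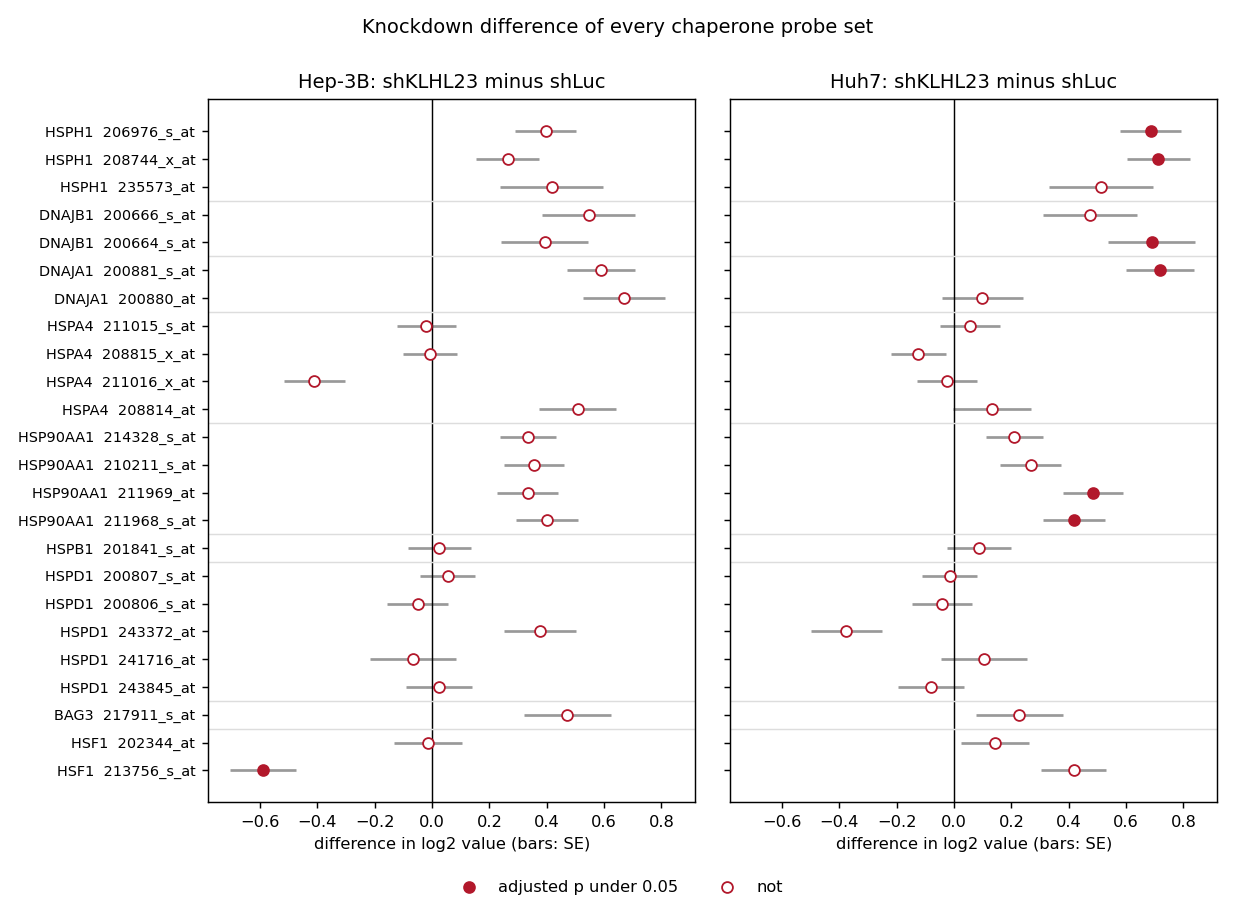
Log2 differences, shKLHL23 minus shLuc, of all 24 probe sets in Hep-3B and Huh7 cells, with bars for the standard error and filled points for called probe sets. Every HSPH1, DNAJB1, DNAJA1 and HSP90AA1 probe set is above 0 in both lines, and HSF1 probe set 213756_s_at is at -0.59 in Hep-3B and 0.42 in Huh7.

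Counted over all 24 probe sets, 17 differences were above 0 in Hep-3B and 18 in Huh7, with medians of 0.33 and 0.18, against medians of 0.01 and 0.01 over all probe sets. In Hep-3B the fit called 1 of the 24, HSF1 213756_s_at, which was lower, against 1.15% of all probe sets (0.498% higher and 0.65% lower). In Huh7 it called 6, all higher, against 8.5% of all probe sets in either direction, 3.83% higher and 4.67% lower. These 6 were 206976_s_at and 208744_x_at of HSPH1, 200664_s_at of DNAJB1, 200881_s_at of DNAJA1, and 211969_at and 211968_s_at of HSP90AA1. Both shKLHL23 arrays lay above both shLuc arrays for 15 probe sets in Hep-3B (25.2% of all probe sets) and 14 in Huh7 (25.5% of all), and below them for 3 in Hep-3B (24.6% of all) and 2 in Huh7 (23.7% of all). With either Huh7 shLuc array left out, few or none of the 24 were called in Huh7, and leaving out other arrays mattered less. The Huh7 calls of HSP90AA1 211969_at and 211968_s_at were lost in most fits with an array left out. Their Huh7 differences then ranged from 0.43 to 0.54 and from 0.30 to 0.54. In Hep-3B an intensity trend with robust eBayes called 9 of the 24, 7 higher and 2 lower, against 1963 of all 54613 probe sets (3.59%). In Hep-3B shKLHL23 cells replicate 3 was the higher replicate for 8 of 9 genes by their brightest probe sets, against 4 of 9 in Hep-3B shLuc cells. It was higher for 4 of 9 in Huh7 shKLHL23 cells and 5 of 9 in Huh7 shLuc cells. Replicate 3 had the lower KLHL23 value in Hep-3B shKLHL23 cells, but replicate 1 had it in Huh7 shKLHL23 cells. The share over all probe sets was not counted, and any tie to the KLHL23 level was not tested.

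The knockdown differences of the 2 lines were compared directly as Huh7 minus Hep-3B. The fit called 1 of the 24 probe sets, against 0.934% of all in either direction and 0.445% higher. It was HSF1 213756_s_at, with a difference between lines of 1.01 ± 0.16, and with an array left out it was called in 1 of 8 fits. Its Hep-3B call held in 2 of 8 such fits. For HSPH1 206976_s_at the difference was 0.29 ± 0.15, for DNAJB1 200666_s_at -0.07 ± 0.23, for DNAJA1 200881_s_at 0.13 ± 0.17 and for HSP90AA1 214328_s_at -0.12 ± 0.14. The intervals are wide, so these do not show that the lines responded alike.

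Without knockdown the lines themselves differed. In the fit of Huh7 shLuc minus Hep-3B shLuc, 12 of the 24 probe sets were called, 3 higher and 9 lower in Huh7, against 25.8% of all probe sets, 12.9% in each direction. DNAJA1, by 200881_s_at, was lower in Huh7, at -1.22 ± 0.12, and HSP90AA1 211968_s_at was at -0.76 ± 0.11, while HSPB1 was at 0.59 ± 0.11 and BAG3 at 0.48 ± 0.15. Probe sets of a gene again disagreed in places: HSPH1 206976_s_at was at -0.51 ± 0.11, but HSPH1 235573_at at 0.41 ± 0.18, and HSPA4 208814_at at 0.73 ± 0.14, but HSPA4 211015_s_at at -0.18 ± 0.10. By the brightest probe set, DNAJA1 and HSP90AA1 ran from high to low as Hep-3B shKLHL23, Hep-3B shLuc, Huh7 shKLHL23 and Huh7 shLuc, with no overlap between neighbours. HSPH1 ran as Hep-3B shKLHL23, Huh7 shKLHL23, Hep-3B shLuc and Huh7 shLuc, also without overlap, and DNAJB1 in the same order, with the first pair overlapping. HSPB1 was higher in both Huh7 groups than in both Hep-3B groups, with each line's own groups overlapping. BAG3 had Hep-3B shLuc lowest, and the 3 groups above it overlapped with their neighbours. HSPD1 had the Hep-3B groups above the Huh7 groups, which overlapped, and HSF1 202344_at had the Huh7 groups above the Hep-3B groups, which overlapped. For HSPA4, of neighbours in the order only Huh7 shKLHL23 and Huh7 shLuc, the lowest pair, were apart, and Hep-3B shLuc lay above both.

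The HSP70 genes proper were measured by probe sets that share symbols, which the counts above leave out. They too were chosen with earlier results of these data known, so their p-values describe these arrays and support nothing further. HSPA1A and HSPA1B, near-identical genes for the inducible HSP70, are covered by 3 probe sets, of which 200800_s_at is paired with HSPA1L too. All 3 rose in both lines, by more than any probe set of the 10 genes alone. The 200799_at probe set was at 10.73 and 11.29 in Hep-3B shKLHL23 cells, against 9.41 and 9.42 in Hep-3B shLuc cells, a 3.02-fold higher level (1.60 ± 0.18, limma adjusted p = 0.0103). It was at 8.37 and 8.06 in Huh7 shKLHL23 cells, against 6.4 and 6.54 in Huh7 shLuc cells, a 3.35-fold higher level (1.75 ± 0.18, limma adjusted p = 0.00161). The shKLHL23 arrays were well above the shLuc arrays of their own line, and the Huh7 groups lay below both Hep-3B groups. The 200800_s_at probe set differed by 1.68 ± 0.19 in Hep-3B (limma adjusted p = 0.0106) and 1.69 ± 0.19 in Huh7 (limma adjusted p = 0.00248), and 202581_at by 1.64 ± 0.24 (limma adjusted p = 0.0211) and 1.33 ± 0.24 (limma adjusted p = 0.0127). Which of the near-identical genes gave the signal cannot be told apart. HSPA6, another inducible HSP70, was not called, at 0.11 ± 0.10 in Hep-3B and 0.11 ± 0.10 in Huh7. Its probe set was dim, at 4.09 to 4.36, under the median of every array.

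The Hep-3B calls of HSPA1A and HSPA1B were lost for every probe set when Hep-3B shKLHL23 replicate 3, Hep-3B shLuc replicate 1 or Hep-3B shLuc replicate 3 was left out, with limma adjusted p up to 0.186, while the differences stayed at 1.31 or more. The call of 202581_at was also lost there without either Huh7 shLuc array. The Huh7 calls of 200799_at and 200800_s_at were kept in all 8 such fits, and that of 202581_at in 5 of 8. HSPA8, whose probe sets are paired with the small nucleolar RNAs SNORD14C and SNORD14D as well, was higher with shKLHL23 by 0.76 to 0.94 in Hep-3B and by 0.82 to 1.02 in Huh7 over its 4 probe sets. By 224187_x_at it was at 13.03 and 13.29 in Hep-3B shKLHL23 cells, against 12.25 and 12.29 in Hep-3B shLuc cells, and at 12.53 and 12.26 in Huh7 shKLHL23 cells, against 11.42 and 11.42 in Huh7 shLuc cells. Its groups were apart in both lines, and the signal of the snoRNA host gene and the snoRNAs cannot be separated here.

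**Figure D4:**
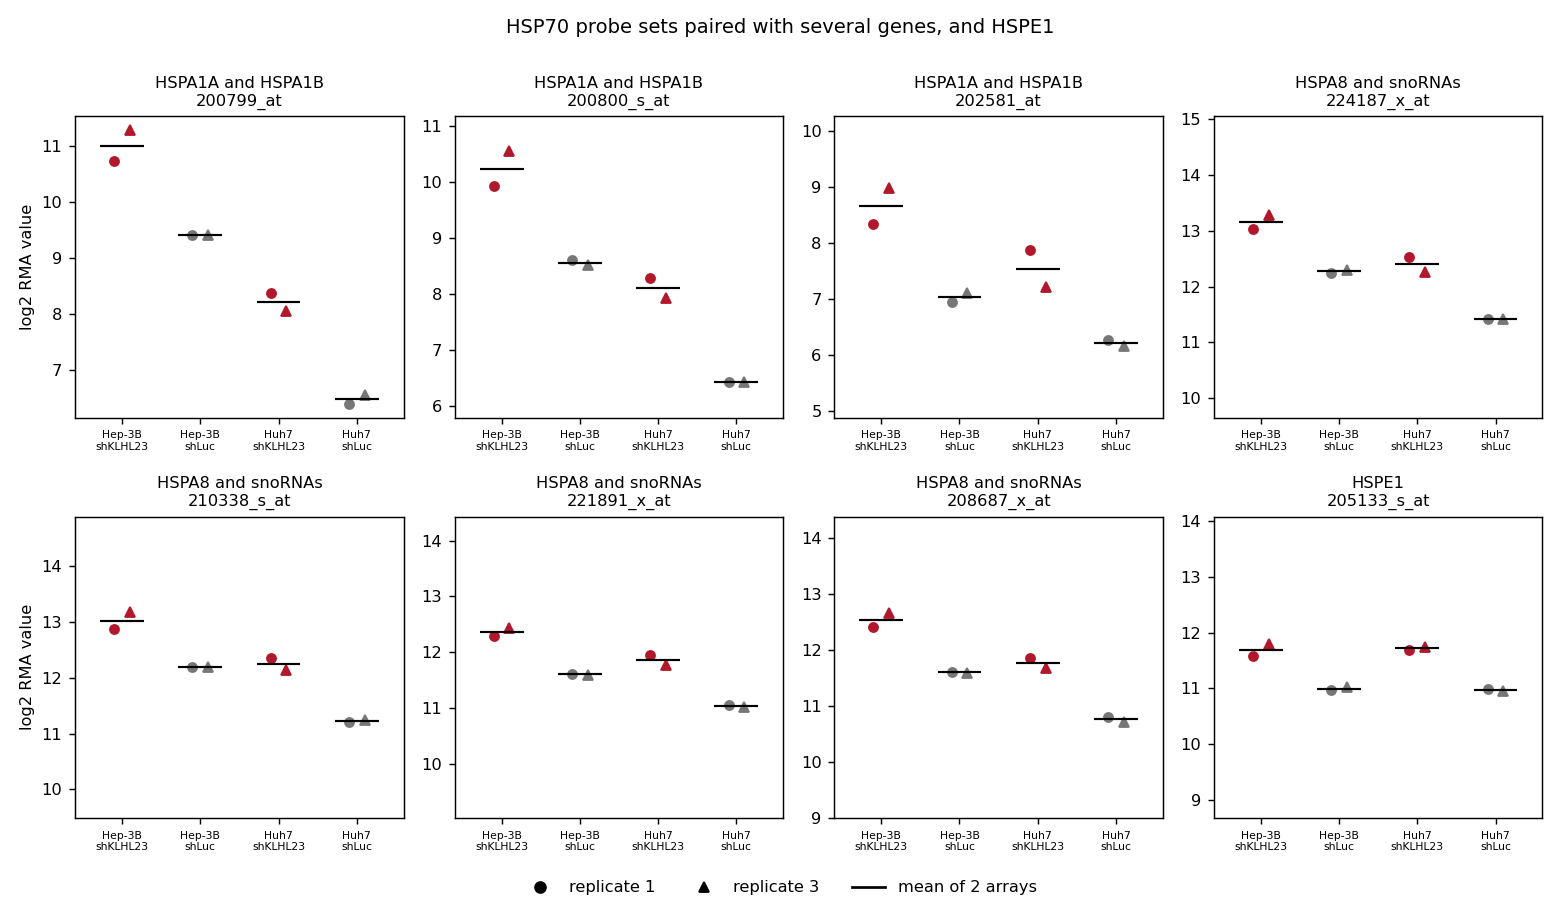
Log2 RMA values on each array of the probe sets paired with HSPA1A and HSPA1B or with HSPA8 and its small nucleolar RNAs, and of HSPE1, with symbols for replicates 1 and 3 and a line at each group mean. In every panel the shKLHL23 arrays of a line lie above its shLuc arrays.

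The wider chaperone network was described from lists of 80 genes, of which 73 had a probe set of their own. These lists were chosen with earlier results of these data known. The calls, p-values and shares below therefore describe the listed genes and do not test them. Each gene was taken by its brightest probe set. In Hep-3B 2 of the 73 rose and 0 fell, against 0.971% of all genes called, 0.733% higher and 0.238% lower. At an unadjusted p under 0.05 by limma, 15 were higher (20.5%) and 2 lower (2.74%), against 9.13% and 7.12% of all genes. In Huh7 8 rose and 6 fell, against 10.7% of all genes called, 4.46% higher and 6.2% lower. At the same unadjusted p, 18 were higher (24.7%) and 13 lower (17.8%), against 12% and 14.1% of all genes. Without Huh7 shLuc replicate 1 a single Huh7 call was left, without Huh7 shLuc replicate 3 there were 0, and without Huh7 shKLHL23 replicate 1 there were 5. The median difference of the 73 was 0.10 in Hep-3B and 0.11 in Huh7, against 0.02 and 0.00 over all genes. Of the CCT chaperonin subunits, which fold actin and tubulin, limma called 0 of 7 in Hep-3B and in Huh7, with 0 and 1 past an unadjusted p of 0.05. Of the endoplasmic reticulum chaperones it called 1 of 9 in Hep-3B and 0 of 9 in Huh7, with 5 and 1 past an unadjusted p of 0.05. Over all genes 16.2% in Hep-3B and 26.1% in Huh7 were past that unadjusted p. In the control comparison 30 of the 73 were called, against 30.2% of all genes.

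HSPE1, the mitochondrial HSP10 that caps HSPD1, was the network gene called in both lines. It was at 11.58 and 11.80 in Hep-3B shKLHL23 cells, against 10.97 and 11.02 in Hep-3B shLuc cells, a difference of 0.69 ± 0.11 (limma adjusted p = 0.0253). The Huh7 arrays read 11.68 and 11.75 with shKLHL23, against 11.0 and 10.96 with shLuc, a difference of 0.74 ± 0.11 (limma adjusted p = 0.00566). The Huh7 call held in 7 of 8 fits with an array left out and the Hep-3B call in 3 of 8. DNAJB9, a J-domain protein of the endoplasmic reticulum, was at 8.41 and 8.77 in Hep-3B shKLHL23 cells, against 7.59 and 7.66 in Hep-3B shLuc cells, a difference of 0.97 ± 0.13 (limma adjusted p = 0.0166). In Huh7 it differed by 0.02 ± 0.13, and the difference between lines, -0.95, missed the threshold (limma adjusted p = 0.0509). Its probe sets disagreed in Huh7: 202843_at was at 7.07 and 6.61 with shKLHL23, against 7.41 and 7.54 with shLuc, a difference of -0.64 ± 0.18 that was not called (limma adjusted p = 0.0670). By 202843_at the difference between lines was called, at -1.51 ± 0.26 (limma adjusted p = 0.0404).

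In Huh7 the further genes that rose came from several classes. They were the dim HSP70 gene HSPA2 (1.34 ± 0.23, limma adjusted p = 0.0101), the small heat shock protein HSPB8 (0.97 ± 0.19, limma adjusted p = 0.0179), the J-domain gene DNAJB4 (0.62 ± 0.12, limma adjusted p = 0.0148) and VCP, which extracts ubiquitinated proteins (0.61 ± 0.11, limma adjusted p = 0.0114). UNC45A, a myosin chaperone that binds HSP90 (0.55, limma adjusted p = 0.0161), SERPINH1, the collagen chaperone HSP47 (0.50, limma adjusted p = 0.0248), and HSBP1, a binding protein of HSF1 (0.42, limma adjusted p = 0.0298), rose too. The other HSBP1 probe set, 200941_at, lay the other way in Huh7, at 9.14 and 9.28 with shKLHL23, against 9.46 and 9.46 with shLuc (-0.25 ± 0.10, limma adjusted p = 0.191), and the dim HSPB8 233057_at differed by 0.06 ± 0.16. The other DNAJB4 probe set, 203811_s_at, differed by 0.28 ± 0.10 in Huh7 and was not called (limma adjusted p = 0.134). HSPA2 was at 5.52 and 4.68 in Huh7 shKLHL23 cells, against 3.61 and 3.90 in Huh7 shLuc cells, near the array medians, and its Huh7 call held in 6 of 8 fits with an array left out. The genes that fell included GRPEL2, a mitochondrial nucleotide exchange factor (-1.18 ± 0.24, limma adjusted p = 0.0194), HSPA9, the mitochondrial HSP70 (-0.49, limma adjusted p = 0.0158), the exchange factor BAG4 (-0.71, limma adjusted p = 0.00734), the HSP70 relative HSPA14 (-0.57, limma adjusted p = 0.0195), the HSP90 cochaperone FKBP5 (-0.38, limma adjusted p = 0.0356) and IER5 (-0.42, limma adjusted p = 0.0392). For the difference between lines limma called 0 of the 73, against 0.966% of all genes, with 14 past an unadjusted p of 0.05 (19.2%), against 13.4% of all genes. By dimmer probe sets, DNAJB9 202843_at, HSPA9 200690_at (-0.80 ± 0.13, limma adjusted p = 0.0373) and DNAJC7 215252_at (1.34 ± 0.15, limma adjusted p = 0.0128) were called between lines. The brighter DNAJC7 202416_at did not show this, at 0.01 in Hep-3B, 0.03 in Huh7 and 0.02 ± 0.14 between lines. These probe sets were picked after their values were seen. Over all probe sets 0.934% were called between lines, and the share over all network probe sets was not counted.

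**Figure D5:**
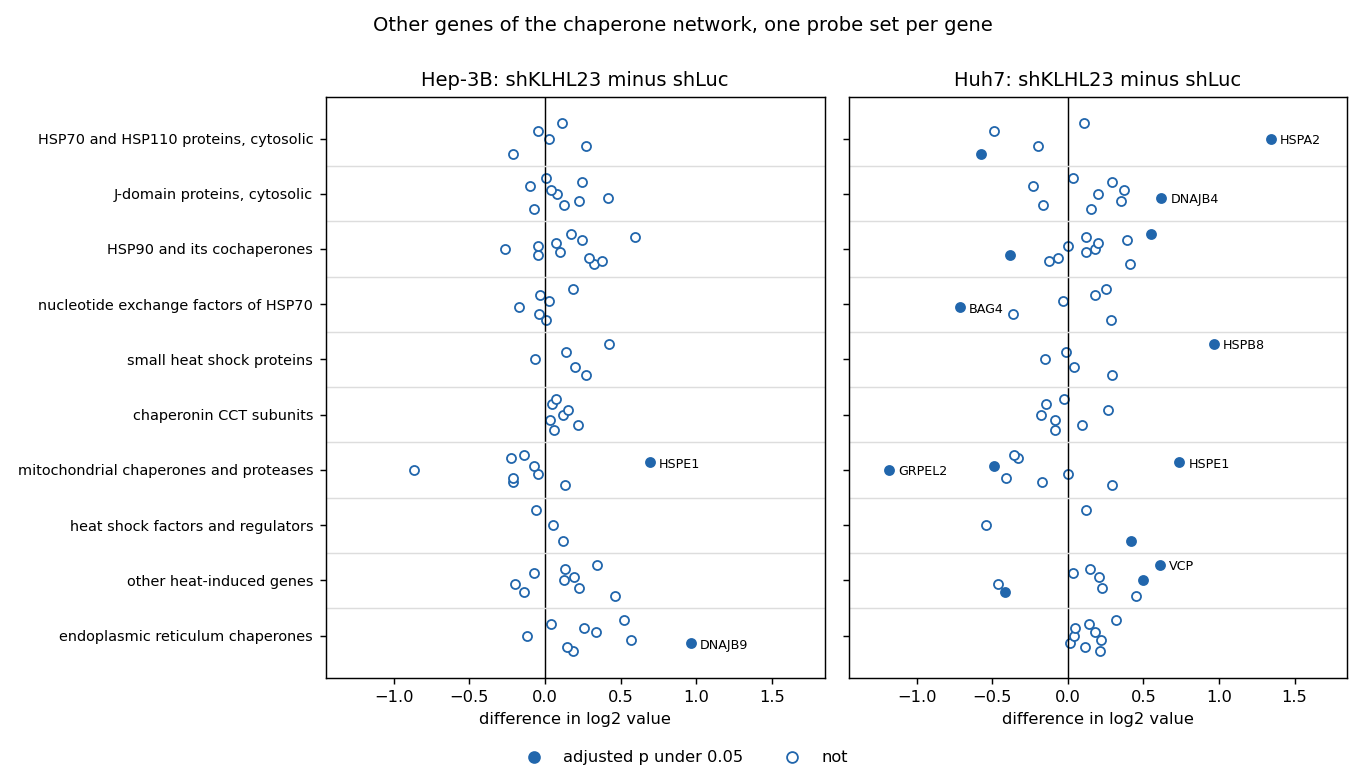
Log2 differences, shKLHL23 minus shLuc, of the 73 network genes by list, in Hep-3B and Huh7 cells, with called genes filled and those called at the largest differences named. HSPA2, HSPB8 and HSPE1 lie at the upper end in Huh7 cells and GRPEL2 at the lower.

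Genes with the printed element had medians close to those of all genes. For 89 genes with it in a promoter and their own probe set, the median difference was 0.05 in Hep-3B and 0.01 in Huh7. Medians were 0.02 and 0.00 for 15384 genes with a searched promoter. HSPA8 holds the element but is not among the 89, as it has no probe set of its own. Its 4 shared probe sets were higher with shKLHL23, by 0.76 to 0.94 in Hep-3B and 0.82 to 1.02 in Huh7. Of the 89, limma called 0 in Hep-3B, with 10 higher (11.2%) and 2 lower (2.25%) at an unadjusted p under 0.05, against 9.46% and 7.4% of the 15384. In Huh7 3 rose (DNAJA1, SERPINH1 and ACTR3C, 3.37%) and 5 fell (5.62%), against 4.73% and 6.55% of the 15384. Without DNAJA1, HSP90AA1 and HSPD1, the genes of the 10 among them, 2 of 86 rose in Huh7 (2.33%) and 5 fell (5.81%). In Hep-3B limma called 0 of these 86. At an unadjusted p under 0.05, 8 were higher there (9.3%) and 2 lower (2.33%), against the same 9.46% and 7.4%. Network genes such as SERPINH1 stayed in these counts.

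The genes whose values over the 8 arrays were most like those of HSPH1, among genes spanning at least 1 on the log2 scale, were RBX1 (r = 0.995), NPC2 (r = 0.994), PLXNA3 (r = 0.984), MT2A (r = 0.978) and ATP6V1D (r = 0.976). Those most like DNAJB1 were SHC3 (r = 0.980), SLC22A4 (r = 0.963), TRNP1 (r = 0.957), C12orf75 (r = 0.956) and H2BC5 (r = 0.953). These coefficients describe 8 arrays of 4 groups that share lines and hairpins, and carry no test.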

How the data were processed

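The authors deposited log2 expression values of 54675 probe sets. Per the submitters' processing notes they used RMA and Affymetrix Expression Console 1.2. RMA gives all arrays a common distribution of probe intensities, so a change in total RNA per cell cannot be seen. The sources used here do not give other settings. After 62 control probe sets were left out, 41091 probe sets had 1 symbol in the platform annotation, 1801 several and 11721 none. The limma model (version 3.58.1, R 4.3.3) had 4 group means, and eBayes moderated the spread (4 residual and 5.17 prior degrees of freedom). The script was tested on simulated data. The number of arrays limits the precision. A gene outside the 10 stood by its probe set with the highest mean, with no filter on level. Adjusted p-values are over all 54613 probe sets. Named genes are the 10 genes, KLHL23, HSPA1A, HSPA1B, HSP90AB1 and HSPE1, up to 3 called genes per list and line with the largest differences, and the 5 genes most correlated with HSPH1 and with DNAJB1. HSPA6, ACTR3C, DNAJC7, the dimmer probe sets of network genes and the cell type markers were named after their values were seen. The genes and lists were chosen with earlier results of these data known. Alternatives were a further quantile normalization, median centring, leaving out dim probe sets, 1 probe set per gene, leaving out cross-matching (_x_at and _s_at) probe sets, an intensity trend with robust eBayes, array weights, the replicate number as a block, fitting each line alone, leaving out each array, and the shorter promoter element. Promoters were RefSeq sequences of GRCh38.p14.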

Additional observations from a re-analysis of the deposited data

Results flagged for a closer look

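HSF1 probe set 213756_s_at was singled out because its knockdown difference was in opposite directions in the 2 lines, and the difference between lines itself was called (Huh7 minus Hep-3B 1.01 ± 0.16, on the log2 scale). That call held in 1 of 8 fits with an array left out. It was at 0.42 ± 0.11 in Huh7 and -0.59 ± 0.11 in Hep-3B. The other HSF1 probe set, 202344_at, did not show it, at 0.14 ± 0.12 in Huh7 and -0.02 ± 0.12 in Hep-3B.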

How the results depend on the processing

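Counts of calls moved with the processing. How far the differences moved cannot be set against this, because many settings could not move them. Leaving out an array of 1 line cannot change the knockdown difference of the other line. Fitting a line alone, the intensity trend and the replicate block change only the spread. Dropping other probe sets leaves the values of a kept probe set as they were. Of 288 member differences with an array left out, 254 moved by less than the spread between replicates, 34 moved further and 0 reversed. Of 294 under other settings, 274, 18 and 2 did. A change of sign counted as reversed only where the difference was called in the main or the altered fit. Differences near 0 did change sign with an array left out. In Hep-3B, HSPA4 211015_s_at ranged from -0.12 to 0.08 and HSF1 202344_at from -0.16 to 0.12. The 2 reversed were the Huh7 minus Hep-3B control differences of HSPH1 (0.41) and HSPA4 (0.73) without _x_at and _s_at probe sets, where another probe set of the gene stands for it. Counts follow as all probe sets, then the 24 probe sets, then the 73 network genes. In Hep-3B knockdown they were 627, 1 and 2, in Huh7 knockdown 4641, 6 and 14, for the difference between lines 510, 1 and 0, and for Huh7 minus Hep-3B controls 14086, 12 and 30. With 1 probe set per gene they were 137 and 0 (Hep-3B, first 2 counts), 2666 and 2 (Huh7), 249, 0 and 1 (between lines), and 6457 and 5 (controls). Without _x_at and _s_at probe sets they were 316, 0 and 1, 2741, 1 and 9, 320, 0 and 1, and 8533, 3 and 19 in the same order of comparisons. Without dim probe sets Hep-3B had 1143, 3 and 4, and between lines 855 of all and 1 network gene. An intensity trend with robust eBayes gave 1963, 9 and 7 in Hep-3B, 23 network genes in Huh7, and 1271, 2 and 2 between lines. Array weights gave 1715, 3 and 4 in Hep-3B and 1 network gene between lines. A further quantile normalization gave 0 of the 24 in Hep-3B and 1 network gene between lines. Fitted alone, Hep-3B had 0, 0 and 0 calls and Huh7 2139, 3 and 7. Fits with an array left out ranged over 0 to 1991, 0 to 3 and 0 to 6 in Hep-3B, 549 to 5394, 0 to 6 and 0 to 16 in Huh7, 2 to 1075, 0 to 1 and 0 to 1 between lines, and 9463 to 15565, 6 to 12 and 14 to 32 between controls. Of network calls in Huh7, 1 was left without Huh7 shLuc replicate 1, 0 without Huh7 shLuc replicate 3 and 5 without Huh7 shKLHL23 replicate 1. The median Huh7 difference of genes with the searched element was 0.0084, with GAANNTTC -0.0102, and without dim probe sets 0.0353.

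The labels do not say whether arrays with the same replicate number, 1 or 3, share a culture or batch. The correlation of replicate 1 minus replicate 3 was -0.035 between shKLHL23 and shLuc in Hep-3B and 0.0535 in Huh7. Such values over all probe sets cannot exclude a pairing that only some probe sets show. With the replicate block the counts were 564, 0 and 2 in Hep-3B, 4027, 5 and 14 in Huh7, 347, 1 and 0 between lines, and 13639, 11 and 28 between controls. With 2 arrays a group, a call at a given size rests on a spread shared by all groups.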
